A study of Drosophila melanogaster with 3 samples.

Results

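The testis meiotic arrest genes of Drosophila melanogaster are a set of 10 genes, aly, comr, topi, tomb, wuc, can, mia, sa, nht and rye, out of 13945 protein-coding genes on the 6 chromosome arms searched. They were taken by name, and the rule itself uses no measured value, although earlier results of these data were known when the set was chosen. Their loci were examined in chromatin immunoprecipitation followed by sequencing (ChIP-seq) of achintya (achi), a homeodomain protein of the TGIF class. The only group was 3 biological replicates of whole prepupae of unknown age and pooled sex, from a transgenic line stably expressing achi with GFP at its C-terminus, precipitated with an antibody against GFP. No other genotype, stage or tissue and no untagged flies were analysed here, so the members are set beside other genes in the same animals. Testes were not separated, and region lists carry no marker of the cells that gave the chromatin. What share of it came from spermatocytes was not measured.

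Primary spermatocytes must switch on a large set of genes for the meiotic divisions and for building sperm, and in males that lack most of the arrest genes the spermatocytes stop before the first meiotic division. Their products form 2 groups. The testis meiotic arrest complex (tMAC) holds the products of aly, comr, topi, tomb and wuc and is a testis version of the Myb-MuvB (MMB) complex of somatic cells. The testis TAFs (tTAFs), encoded by can, mia, sa, nht and rye, are paralogs of subunits of the general factor TFIID. The achi protein and the product of its near-identical neighbour vismay (vis) act with aly and comr in spermatocytes, and loss of both genes also gives meiotic arrest.

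The binding word of TGIF-class homeodomains, TGACAG, lay close to the start of 6 of the 10 genes, and these sequences are shown because none of these genes carried an achi summit at its promoter in the authors' final list. Each was read from the RefSeq sequence, dm6 build, and is printed in the direction of its gene, with the word or its complement CTGTCA in capitals.
aly (chr3L:3026545-3026574, minus strand, word 41 bp upstream of the start): tatggcaaccctTGACAGaattgaaatatg
topi (chr3R:9775043-9775072, plus strand, word 66 bp upstream): ccttggagccaaCTGTCAgttgagccaatt
topi (chr3R:9774617-9774646, plus strand, word 492 bp upstream): tatgcgccttggCTGTCAgaagtctgcaaa
tomb (chr2L:5536749-5536778, minus strand, word 8 bp upstream): tttttgttggagCTGTCAtcagttcgtttc
can (chr3L:10267140-10267169, minus strand, word 46 bp upstream): cacaatgcgcagCTGTCAaatcgaaaactt
rye (chr2L:4701407-4701436, minus strand, word 61 bp downstream): cctcaatttcgaTGACAGcgataaatcgtc

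The words of aly, topi, tomb and can were intergenic, and the word of rye lay in its coding exon, inside an intron of dcma. In wuc the word lay 52 bp downstream of the start, in the 5' UTR.

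The data are lists of regions. Each replicate list and the list from the pooled replicates held 30000 regions, ranked by the authors' signal value and reaching down into background. The authors' optimal list of 8998 peaks, thresholded on reproducibility, was the list for calls. At a q-value of at most 0.01 replicates 1, 2 and 3 held 9744, 10649 and 10283 regions. Read depth is unknown, so no interval is given for counting error. The precision of a rank is shown by its spread over the 3 replicates. A summit is the position of highest signal in a region. Positions are given from the nearest annotated transcription start site (TSS), negative upstream. Percent rank places a region among the 30000 of its replicate, with 100 for the strongest.

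No arrest gene had an optimal summit within 500 bp of a TSS. The count was 0 of 10, against 3234 of 13945 protein-coding genes (23.2%). That share of all genes corresponds to 2.32 genes in a set of 10, so the difference amounts to about 2 genes. Of the members 8 have 1 annotated TSS and 2, aly and mia, have 2, and their gene records span 651 to 3203 bp. Among all genes with 1 TSS the bound share was 17.0%, and among those that also fall in the members' length range it was 16.2%. In the pooled list the count was again 0 of 10, against 38.6% of all genes. In the lists of replicates 1, 2 and 3 it was 1, 0 and 0 of 10, against 43.4%, 40.7% and 38.7% of all genes. Thus 1 of 30 combinations of member and replicate had a summit at the promoter, and 9 of 10 members had none in any of the 5 lists, against 48.6% of all genes.

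The single promoter region belonged to wuc, the lin-52-like subunit of tMAC (FBgn0033770, 2R 12700081 to 12700851, plus strand). It lay 223 bp upstream in replicate 1, at rank 28279 and percent rank 5.74, with a -log10 q-value of 0.170. Replicates 2 and 3 had no region there. The region was thus among the weakest of its list and was seen in 1 of 3 replicates.

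**Figure D1:**
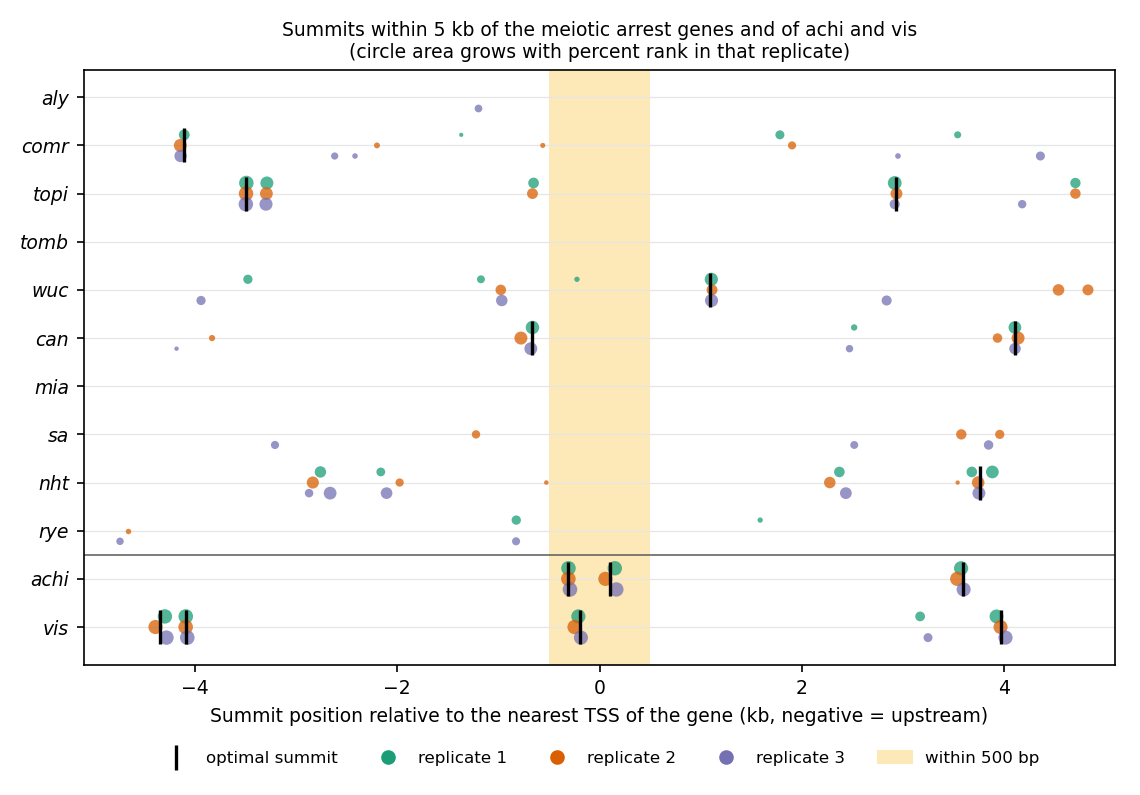
Summits within 5 kb of the 10 arrest genes and, below the line, of achi and vis; the x axis is the position from the nearest TSS in kb. Coloured circles are regions of replicates 1, 2 and 3, with an area that grows with percent rank, black bars are optimal summits, and the shaded band is 500 bp to each side of the TSS. The band holds 1 small circle over all arrest genes, that of wuc in replicate 1, whereas achi and vis hold optimal summits in it.

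Within 5 kb the members stood at the share of all genes. Optimal summits lay within 5 kb of 5 of 10 members, comr, topi, wuc, can and nht, against 49.6% of all genes. The pooled list gave 7 of 10, against 70.4%. The lists of replicates 1, 2 and 3 gave 6, 7 and 8 of 10, against 76.2%, 74.0% and 72.4% of all genes. The tMAC genes gave 3 of 5 and the tTAF genes 2 of 5 in the optimal list. With replicate 1 or replicate 3 left out the optimal count was 3 (topi, can and nht), and with replicate 2 left out it was 4, with wuc added. For these counts the optimal list was not remade. The members kept were those with an optimal summit among the 8998 strongest regions of both remaining replicates. The count of 5 carries no such requirement, so the lower counts do not show that it depends on a replicate.

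Among the tMAC genes, aly (FBgn0004372, 3L 3024129 to 3026521, minus strand) is the testis paralog of mip130, a LIN-9 protein. Its nearest optimal summit lay 9736 bp away, and 66.4% of all genes have one at least as near. A region within 5 kb was listed in replicate 3 alone, 1206 bp upstream, at rank 23501 and percent rank 21.7. The DNA-binding subunit gene tomb (FBgn0031715, 2L 5535861 to 5536758, minus strand), whose product resembles LIN-54, had no region within 5 kb in any of the 5 lists. Its nearest optimal summit was 9932 bp away. The gene overlaps the record of Cap-D3, a condensin subunit.

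The gene comr (FBgn0034667, 2R 21864870 to 21866859, minus strand) encodes a nuclear protein of the complex. One optimal summit, at 2R 21870967, lay 4108 bp upstream of it. The rank of that peak was 8820 of 8998 in the optimal list and 14683, 7030 and 9280 in replicates 1, 2 and 3 (percent rank 65.6 ± 13.1, SD, n = 3). It sat near the bottom of the optimal list and was in the 8998 strongest regions of 1 replicate. The summit was intergenic and nearer to Fili, whose TSS was 1063 bp from it.

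The zinc-finger gene topi (FBgn0037751, 3R 9775121 to 9777943, plus strand) had the strongest region near any member, but that summit stood at another gene's start. It lay 3496 bp upstream of topi and 83 bp from the TSS of CG9471. It ranked 456 in the optimal list and 368, 621 and 486 in replicates 1, 2 and 3, a percent rank of 98.4 ± 0.422 (SD, n = 3). A second optimal summit lay 2929 bp downstream, in the 5' UTR of the ribosomal protein gene RpS29, 8 bp from its TSS and 348 bp from snoRNA:Psi18S-1275. Its ranks were 3448, 11013 and 16707 in replicates 1, 2 and 3, and its percent rank was 65.4 ± 22.2 (SD, n = 3). Here the replicates spread widely, and only replicate 1 had it among its 8998 strongest. Nearer to topi, regions 652 and 663 bp upstream were listed in replicates 1 and 2, at percent ranks of 49.9 and 51.6, and none within 1 kb in replicate 3.

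The nearest optimal summit of wuc was 1091 bp downstream of its TSS, at 2R 12701172, beyond the end of the gene and with no other TSS within 500 bp. Its ranks were 5786, 14305 and 6343 in replicates 1, 2 and 3 (percent rank 70.6 ± 15.9, SD, n = 3). Replicates 1 and 3 held it among their 8998 strongest regions, and replicate 2 did not. On the other side of the gene, regions 976 and 966 bp upstream in replicates 2 and 3 had percent ranks of 48.3 and 59.1, and the region of replicate 1 at 1172 bp had 23.4.

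Among the tTAF genes, can (FBgn0011569, 3L 10263909 to 10267111, minus strand), the paralog of Taf5, came closest to the promoter rule. An optimal summit at 3L 10267782 lay 671 bp upstream, and 24.8% of all genes have one at least as near. Its optimal rank was 5881 and its ranks in replicates 1, 2 and 3 were 4817, 6697 and 7151, a percent rank of 79.3 ± 4.12 (SD, n = 3). All 3 replicates held it among their 8998 strongest. It was intergenic, and can was the only protein-coding gene with a TSS within 5 kb of it. A second summit lay 4105 bp downstream, with ranks of 7817, 6776 and 12311.

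The nearest can summit is shown because it was the nearest of any member, and the topi summit because it was the strongest; both are the 61 bases around the summit on the plus strand, dm6.
can (chr3L:10267752-10267812): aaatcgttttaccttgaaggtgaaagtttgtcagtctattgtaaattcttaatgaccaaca
topi and CG9471 (chr3R:9771595-9771655): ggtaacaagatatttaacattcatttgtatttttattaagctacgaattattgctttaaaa

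Neither stretch holds TGACAG or its complement. The other 5 of the 7 distinct optimal summits near members also had none within 100 bp. TATCGATA, the DNA replication-related element, lay 7 bp from the RpS29 summit and within 100 bp of no other of the 7.

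The Taf4 paralog nht (FBgn0041103, 2L 15317954 to 15318901, minus strand) had 1 optimal summit, 3763 bp downstream, intergenic and near no other start. Its ranks were 7716, 8314 and 6977 in replicates 1, 2 and 3 (percent rank 74.4 ± 2.23, SD, n = 3). All 3 replicates held it among their 8998 strongest, with a small spread. Upstream, regions 2759, 2834 and 2663 bp from the TSS recurred in replicates 1, 2 and 3 at percent ranks of 58.2, 66.1 and 74.9, without an optimal summit.

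The Taf6 paralog mia (FBgn0014342, 3R 5548115 to 5551168, minus strand) had no region within 5 kb in any of the 5 lists, as did tomb, which held for 16.5% of all genes. Its nearest optimal summit was 17591 bp away, and 81.2% of all genes have one at least as near. The Taf8 paralog sa (FBgn0002842, 3L 21405425 to 21406738, minus strand, overlapping rgn) had its nearest optimal summit at 11326 bp. Its strongest regions within 5 kb had percent ranks of 46.1 and 36.9 in replicates 2 and 3, and replicate 1 had none.

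The Taf12 paralog rye carries the symbol Taf12L in the annotation (FBgn0031623, 2L 4700835 to 4701485, minus strand) and overlaps dcma. Its nearest optimal summit, 52487 bp away, was the most distant of any member, and 95.8% of all genes have one at least as near. The strongest regions within 5 kb had percent ranks of 35.6, 6.56 and 24.4 in replicates 1, 2 and 3, a mean of 22.2 ± 14.6 (SD, n = 3). Weak regions 823 and 825 bp upstream recurred in replicates 1 and 3. The replicate 2 region lay 4660 bp upstream, so the mean and SD join different sites.

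**Figure D2:**
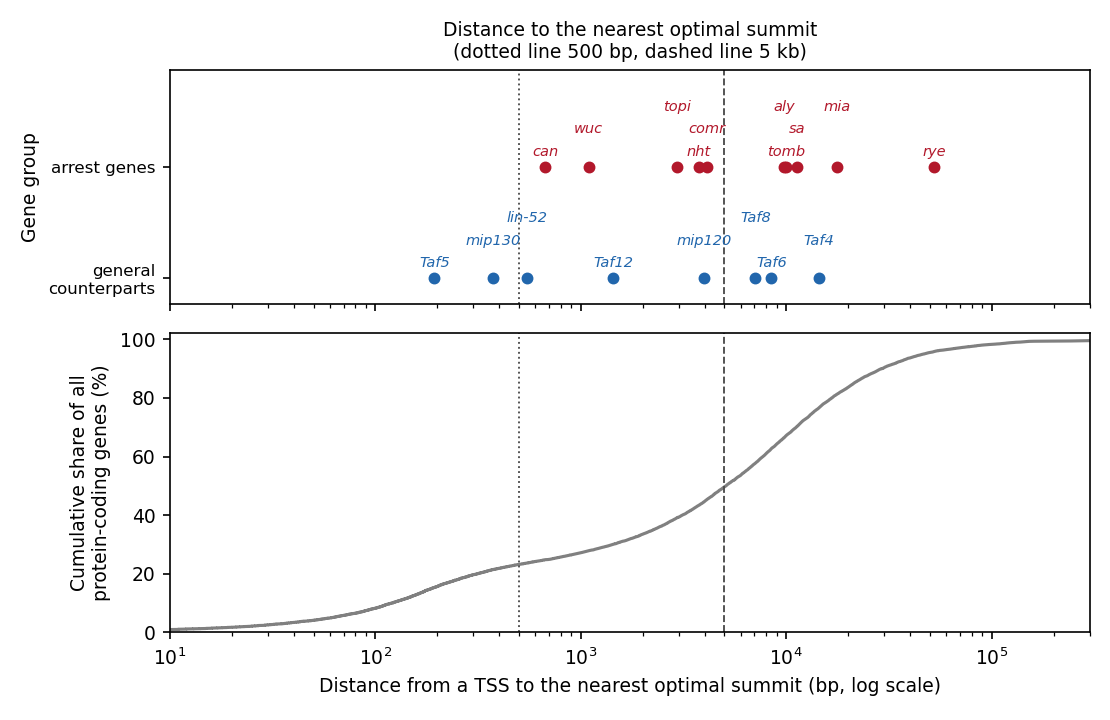
Distance from a TSS to the nearest optimal summit (bp, log scale). The upper panel marks each of the 10 arrest genes and, below them, each of 8 general counterparts; the lower panel gives the cumulative share of all protein-coding genes at that distance. The arrest genes run from can at 671 bp to rye at 52487 bp, all right of the 500 bp line, and Taf5 and mip130 lie left of it.

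The median distance to the nearest optimal summit was 6922 bp over the 10 members, 2708 bp over the 8 general counterparts and 5084 bp over all protein-coding genes. The tMAC genes had a median of 4108 bp and the tTAF genes 11326 bp, with overlapping ranges of 1091 to 9932 bp and 671 to 52487 bp.

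The general counterparts are the paralogs that work in most cells. The groups were set by the label of a gene as testis or general and were not matched for length or TSS number. Counterparts reached 12080 bp (mip130) and 3 TSSs (Taf4), against at most 3203 bp and 2 TSSs among the arrest genes. At the promoter the optimal list held 0 of 10 arrest genes and 2 of 8 counterparts (25%), mip130 and Taf5. The counterparts were thus near the 23.2% of all genes, and the difference of 2 genes between the groups was not tested. Replicates 1, 2 and 3 held 1, 0 and 0 of 10 arrest genes and 5, 5 and 4 of 8 counterparts. At least 1 of the 5 lists had a promoter summit for 1 of 10 arrest genes and for 6 of 8 counterparts, against 51.4% of all genes. These lists reach into background; among the 8998 strongest regions of replicates 1, 2 and 3 the counts were 0, 0 and 0 of 10 arrest genes and 3, 3 and 2 of 8 counterparts, against 26.6%, 23.9% and 22.6% of all genes. Within the pairs, aly had a promoter summit in 0 and mip130 in 5 of the 5 lists, and can in 0 and Taf5 in 5. Likewise tomb had 0 and mip120 2 lists, sa 0 and Taf8 2, nht 0 and Taf4 3, and rye 0 and Taf12 1. Most of these counterpart regions were weak or middling: mip120 had percent ranks of 54.6 and 62.0 in replicates 1 and 2, Taf8 59.7 and 33.2 in replicates 2 and 3, and Taf12 47.3 in replicate 1. The Taf4 regions had percent ranks of 94.6, 94.2 and 15.8 in replicates 1, 2 and 3. The order was turned for wuc, with 1 list against 0 for lin-52, and mia and Taf6 both had 0. By distance, the arrest gene was farther from an optimal summit than its counterpart in 7 of 8 pairs; nht, at 3763 bp against 14402 bp for Taf4, was the exception.

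Both counterpart promoters with an optimal summit were shared with a neighbouring gene. The mip130 summit, 375 bp from its TSS, lay 115 bp from Edem1, a gene of protein degradation at the endoplasmic reticulum, and had a percent rank of 87.0 ± 1.40 (SD, n = 3). The Taf5 summit, 194 bp from its TSS, lay 107 bp from the peroxisomal gene Pex6 and had a percent rank of 96.4 ± 0.853 (SD, n = 3). The summit nearest to lin-52, at 546 bp, lay 70 bp from CG15771. In these cases the neighbour's TSS was the nearer one, and a summit counts for every gene in its window.

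**Figure D3:**
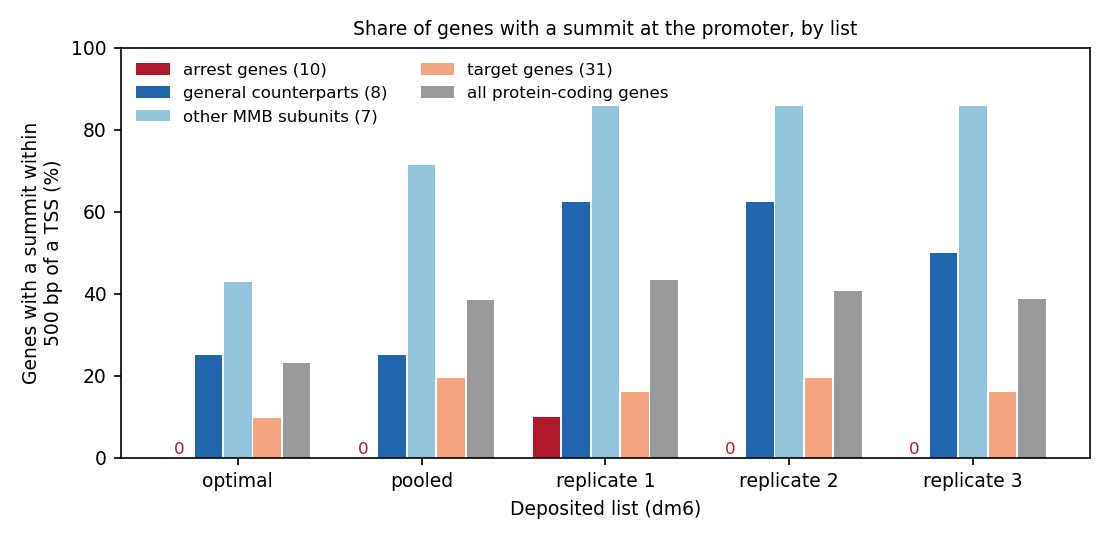
Share of genes in percent with a summit within 500 bp of a TSS in the optimal, pooled and 3 replicate lists. Shown are the 10 arrest genes, 8 general counterparts, 7 other MMB subunits, 31 target genes and all protein-coding genes. Target genes are genes that need some or all of the arrest genes in spermatocytes. Arrest genes reach 10% in replicate 1, through wuc alone, and 0 in the other 4 lists; all protein-coding genes range from 23.2% to 43.4%.

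The starts of the members lay far from those of other genes. The nearest TSS of another coding gene was a median of 5632 bp away over the arrest genes, 459.5 bp over the counterparts and 1375 bp over all genes. No other coding TSS within 1 kb was found for 9 of 10 members, against 57.1% of all genes; the exception was topi, 702 bp from Whamy. Of the 8 counterparts, 7 had one within 1 kb. This measure was chosen after the values above were seen. Genes with no other coding TSS within 1 kb were bound in 15.6% of cases, which corresponds to 1.4 of the 9 isolated members, where 0 were found. Among the members' nearest neighbours only Fili, 5171 bp from comr, had an optimal summit at its own promoter. Isolation thus differs between members and counterparts together with the promoter counts, and its part in them was not tested.

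**Figure D4:**
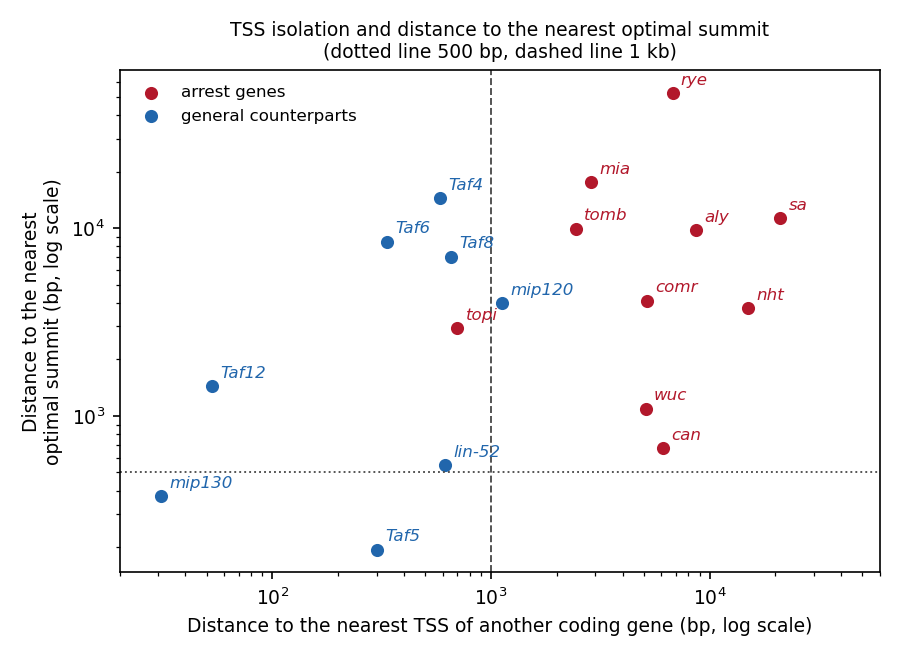
Distance to the nearest TSS of another coding gene (x axis, bp, log scale) against distance to the nearest optimal summit (y axis, bp, log scale) for the 10 arrest genes and their 8 general counterparts. All arrest genes but topi lie right of the 1 kb line and all counterparts but mip120 left of it, and Taf5 and mip130 lie below the 500 bp line.

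TGACAG was found within 500 bp of a TSS in 6 of 10 members, aly, topi, tomb, wuc, can and rye, against 32.0% of all genes. Both strands were searched. From 250 bp before to 50 bp after a TSS it was found in 4 members, against 15.1% of all genes. All 6 had it within 100 bp, a window chosen after the distances were seen, against 11.2% of all genes. The tMAC genes gave 4 of 5 and the tTAF genes 2 of 5. Of the 8 counterparts, 1 had the word within 500 bp (Taf4, 462 bp downstream) and 0 within 100 bp. Of all genes with the word within 100 bp of a TSS, 34.1% had an optimal summit at the promoter, a share that corresponds to 2.04 of 6 genes, where the members gave 0 of 6. That share covers genes with any number of TSSs, whereas of the 6 members only aly has more than 1. It was not computed for genes with 1 TSS alone. TATCGATA was found within 500 bp in 0 of 10 members, against 13.0% of all genes. The count of words is a description of the sequence, and a match does not show a site in use.

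The achi and vis promoters themselves held optimal summits. The strongest achi summit, 307 bp from a TSS, ranked 24 in the optimal list and 30, 15 and 28 in replicates 1, 2 and 3 (percent rank 99.9 ± 0.0271, SD, n = 3). The vis summit, 194 bp upstream, ranked 1706 and had a percent rank of 94.1 ± 1.56 (SD, n = 3). Both promoters held TATCGATA. TGACAG lay 20 bp downstream of an achi TSS, in the 5' UTR, and was not found within 500 bp of the vis TSS. Neither of the summits named here had TGACAG within 100 bp. The genes are near-identical copies, so reads there may be placed at either, and the tagged achi transgene is a further possible source of achi sequence; neither was tested.

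Of the 7 remaining MMB subunit genes (mip40, Caf1-55, Rbf, Rbf2, E2f2, Dp and Myb), 3 (42.9%) had an optimal promoter summit, where 0 of 10 arrest genes and 23.2% of all genes did. The difference was not tested. They were the retinoblastoma family gene Rbf2 (rank 1062, percent rank 96.3 ± 0.473, SD, n = 3), E2f2, which encodes the complex's E2F factor (rank 6780, 73.0 ± 12.4), and Dp, its dimer partner (best rank 566, 98.1 ± 0.111). The Rbf2 summit lay 11 bp from CG32856 and the E2f2 summit 4 bp from the exosome cofactor gene Mpp6.

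The 31 target genes are known to need some or all of the arrest genes in spermatocytes. Of them 3 (9.68%) had an optimal promoter summit, against 23.2% of all genes, and 7 (22.6%) had one within 5 kb, against 49.6%. These differences were not tested. Most targets have 1 annotated TSS, and among all genes with 1 TSS the promoter share was 17.0%. Some targets lie in clusters, such as Mst84Da and Mst84Db with TSSs 223 bp apart, so the 31 genes are not 31 separate loci. The Cdc25 phosphatase gene twe, which drives the meiotic divisions, had rank 3500 and percent rank 88.3 ± 2.50 (SD, n = 3), with the summit 67 bp from CG4935. The cyclin gene CycB had rank 3820 and percent rank 85.6 ± 5.20, with TGACAG 8 bp from the summit. The sperm tail gene Mst87F had rank 7048 and percent rank 75.1 ± 1.30, with the summit 155 bp from its TSS and 195 bp from that of lncRNA:CR43300. In all 3 the summit was among the 8998 strongest regions of every replicate. TGACAG lay within 100 bp of a TSS in 6 of the 31 targets (19.4%), against 11.2% of all genes. These were bol, Mst84Da, Mst84Dc, Pglym87, schuy and boly. None of the 6 was among the 3 bound, but 3 bound genes are too few to read the lack of overlap as a result.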

How the data were processed

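ChIP-seq of achi with a C-terminal GFP was analysed in 3 biological replicates of whole prepupae, from region lists; no reads were used. The antibody field of the labels names achi and the sample description names anti-GFP, which was followed. The authors deposited, per the file descriptions, a list per replicate and a pooled list of 30000 regions each, peaks and background, made from alignments and a control, and an optimal list of 8998 peaks thresholded on the irreproducible discovery rate. No aligner, peak caller or read depth is named in the sources used here. Every region carries the authors' deposited signal, whose scaling is not stated and which served only to rank regions within a list, and the authors' deposited -log10 q-value, which saturates. The lists in dm3 coordinates were not used.

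Genes and TSSs came from Ensembl release 115, on the same Release 6 assembly (dm6) as the lists; the annotated start codon of all 10 members read ATG in the RefSeq sequence of that assembly. Summits were start plus offset. Of 73 symbols in the lists, 4 were matched through a RefSeq synonym: rye as Taf12L, nos, Mst35Ba and Mst35Bb. A second gene, nAChRalpha4, also carries the synonym rye; the TAF was taken. A gene was called where a summit lay within 500 bp, or 5 kb, of any TSS. The 8998 strongest regions of a replicate were its top list. In each replicate, a peak took the rank of the strongest region that covered the summit of the peak. Replicate lists shared 0 identical rows. The labels do not say whether replicates share a day.

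With 1 group there is no test between conditions: counts stand beside the share of all 13945 protein-coding genes, means are given with SD, and p-values are not used. Named were all members, achi, vis, genes with a TSS within 500 bp of a summit within 5 kb of a member and the gene nearest to it, every counterpart, and every gene of the other lists with an optimal promoter summit. The members and lists were chosen with earlier results of these data known. Counting was tested on 200 simulated summits. Alternatives changed the window, overlap, TSS choice, strength and replicates. Calculations used Python 3.11.15, numpy 2.4.6, pandas 2.3.3 and matplotlib 3.10.9.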

Additional observations from a re-analysis of the deposited data

How the results depend on the processing

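The count of 0 arrest genes with an optimal promoter summit was also 0 with a 200 bp window and with the 5' end of each gene record only. It was 0 among the stronger 50% of peaks and without each replicate (0 to 0). These settings can only remove summits or TSSs, so a count of 0 could not move in them. The count became 1 gene, can, with a window of 1000 bp. It also became 1, again can, where the peak interval, not the summit, had to reach the 500 bp window. In the top lists of all 3 replicates the count was 0, and 1 (can) with 1000 bp; without each replicate it was 0 to 0. Within 5 kb the count of 5 became 2 (wuc and can) with 2 kb, 7 with 10 kb and 1 (topi) among the stronger 50% of peaks. It was 3 to 4 where a replicate was left out. There the optimal list was not remade, and the members kept had an optimal summit in the top lists of both remaining replicates. A subset of peaks can only hold fewer. The counterparts' count of 2 became 1 with a 200 bp window and stayed 2 without each replicate. The targets' count stayed between 2 and 3 in every alternative run. TGACAG was found in 4 members from 250 bp before to 50 bp after a TSS (15.1% of all genes), against 6 with the other windows. Ranking by q-value, added after seeing the data, moved the mean percent rank of the strongest region within 5 kb to 88.9 for topi and 84.3 for can. The q-value saturates, and regions at its maximum share a tied rank. For topi all 3 replicates stood at the maximum, so 88.9 is the highest mean this ranking allows and shows no weakening. For can replicates 1 and 2 stood at the maximum and replicate 3 did not.

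No paired analysis was possible because the replicates form a single group. Read depth is unknown, the lists end at 30000 regions, and a region missing from a list is not shown to be unbound. All lists share a control, and no untagged flies were analysed here. Whole-animal chromatin averages over tissues. With 10 members, 1 gene moves a share by 10 percentage points.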

Other observations

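Of 10 germline and spermatogonial genes, 2 had an optimal promoter summit, against 23.2% of all genes. They were bgcn, which acts with bam in the switch from dividing germ cells to spermatocytes (rank 3069, percent rank 88.4 ± 5.28, SD, n = 3), and the translational repressor gene nos (rank 7954, 72.7 ± 3.41, a promoter shared with CG11779). Of 5 other spermatocyte regulators, 1 did, the polyubiquitin gene Ubi-p63E (rank 3867, 86.6 ± 3.15). In the pooled list 3 of 10 and 1 of 5 did, against 38.6% of all genes, and neither difference was tested.

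At Taf4, the counterpart of nht, regions 124 and 113 bp upstream ranked 1609 and 1753 in replicates 1 and 2, while replicate 3 had a region 418 bp upstream at rank 25267. The pooled list had no summit within 500 bp there. Over the whole lists, 302, 246 and 158 of the 8998 strongest regions of replicates 1, 2 and 3 (3.36%, 2.73% and 1.76%) overlapped no pooled region.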
